A study of Mus musculus with 2 samples.

Results

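The immunoproteasome and the machinery that loads peptides onto class I molecules are described here by 10 genes in mouse retina at postnatal day 15. The genes were taken by name from a table of RefSeq transcripts that holds 23356 gene symbols, and the values of a gene's transcripts were summed. There was 1 control and 1 mutant library. Both came from pups whose Dnmt1, Dnmt3a and Dnmt3b genes, which encode the DNA methyltransferases, were flox/flox. The control was Rx-Cre negative and the mutant Rx-Cre positive; the Rx promoter drives Cre recombinase in the lineage of the neural retina and pigment epithelium, to which immigrant cells such as microglia do not belong. Their strain labels differ, C57BL/6 on the control and C57BL/7 on the mutant. The number of pups per library, not given in the sources used here, is unknown. Without replicates no test between genotypes is possible, so each difference below is between these 2 libraries, and a bracketed range is a 95% interval for counting error alone. Levels are in FPKM, fragments scaled by transcript length and library size, which can be compared between genes. Where a pair of levels is given without further words, the control library comes first and the mutant second.

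The proteasome degrades proteins with a barrel, the 20S core, whose catalytic sites are made by the subunits encoded by Psmb5, Psmb6 and Psmb7. Interferon induces Psmb8, Psmb9 and Psmb10, whose products take those places in newly built cores to form the immunoproteasome, and Psme1 and Psme2, which encode the chains of the PA28 activator cap. Peptides so made are carried into the endoplasmic reticulum by the transporter of Tap1 and Tap2, where tapasin (Tapbp) and its relative TAPBPR (Tapbpl) edit the peptides bound to class I molecules. Nlrc5 encodes the transcriptional activator of class I genes. Healthy neural retina is known for low class I expression.

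Each of the 10 genes had the higher level in the mutant, by between 1.65-fold and 71.5-fold. Size was also measured as the log2 ratio after adding 1 FPKM to both values, which understates low genes. Of 13280 genes measured (at least 1 FPKM in either library), 245 were higher by a log2 ratio of at least 1, a share of 1.84%. Of the 10 members, all measured, 6 were past that size (Psmb8, Psmb9, Psmb10, Tap1, Tap2 and Nlrc5) and 4 were not (Psme1, Psme2, Tapbp and Tapbpl). The members' median log2 ratio was 1.42 against 0.00 over all measured genes, and 8 of the 10 lay above 0.82, the value that the top 2.5% of all measured genes exceed. In the control library the members ranged from 0.0516 to 27.1 FPKM, and in the mutant from 3.09 to 48.6. Of 19556 transcripts tested in the authors' deposited table, 69 were called significant (0.353%). The authors' deposited table tested 12 of the members' 13 transcripts and called 2 of them, one of Psmb8 and one of Tap1. In bulk RNA more cells of a type and more RNA per cell cannot be told apart.

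**Figure D1:**
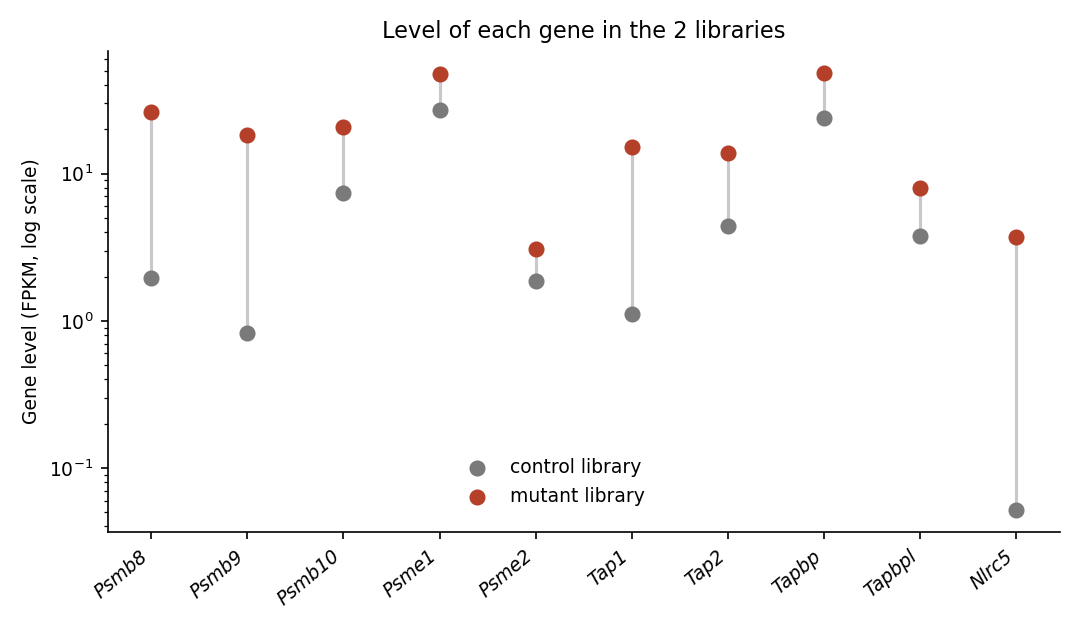
Level of each of the 10 genes in FPKM on a log axis, with 1 point for the control library (grey) and 1 for the mutant library (red). Every red point lies above its grey point; the longest gap is that of Nlrc5 (0.0516 and 3.69 FPKM) and the shortest that of Psme2 (1.88 and 3.09).

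Of the inducible catalytic subunits, Psmb9 and Psmb8 had the largest log2 ratios of the whole set, and Psmb10 a smaller one. Psmb9 (chromosome 17, 34181987 to 34187764, minus strand; coordinates of members are GENCODE M21 genes on GRCm38) encodes the subunit beta1i, which replaces the caspase-like site. Its level was 0.831 and 18.2 FPKM, 21.9-fold higher (16.4 to 29.9), from about 48 and 1224 fragments. Its log2 ratio of 3.39 ranked 19th from the highest among all measured genes. Psmb8 (chromosome 17, 34197721 to 34201454, plus strand) encodes beta5i, the chymotrypsin-like subunit. It had 1.94 and 26.4 FPKM, 13.6-fold higher (11.5 to 16.3), and ranked 26th. Psmb10, on the minus strand of chromosome 8 (105935735 to 105938444), encodes beta2i, the trypsin-like subunit. It started from the highest control level of the trio, 7.36 FPKM, and reached 20.7, which is 2.82-fold (2.52 to 3.15), below the folds of Psmb8 and Psmb9 with no overlap of the intervals.

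The constitutive counterparts were higher by much smaller folds. Psmb5, which beta5i displaces, had 49.1 and 68.5 FPKM (1.39-fold, 1.31 to 1.48). Psmb6, the counterpart of Psmb9, had 89.6 and 101.6 FPKM (1.13-fold, 1.08 to 1.19). Psmb7, the counterpart of Psmb10, had 91.5 and 103 FPKM (1.12-fold, 1.08 to 1.17). Psmb11, the thymus-specific relative of Psmb5 and Psmb8, was under 0.1 FPKM in both libraries.

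The inducible form was the minor one at every catalytic position in both libraries. At the Psmb8 and Psmb5 position it made up 3.80% (3.19 to 4.49) of the summed control FPKM and 27.9% (26.7 to 29.0) of that of the mutant. At the Psmb9 and Psmb6 position the share was 0.919% (0.677 to 1.22) and 15.2% (14.4 to 16.04). At the Psmb10 and Psmb7 position it was 7.44% (6.76 to 8.17) and 16.8% (15.9 to 17.6). The order of the positions thus differed between the libraries: Psmb10 held the largest inducible share in the control and Psmb8 in the mutant. Added up, the 3 inducible genes stood at 10.1 FPKM beside 230 for their counterparts in the control, a share of 4.21%, and at 65.3 beside 273 in the mutant, a share of 19.3%. These are shares of transcript, and assembled proteasomes were not measured.

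**Figure D2:**
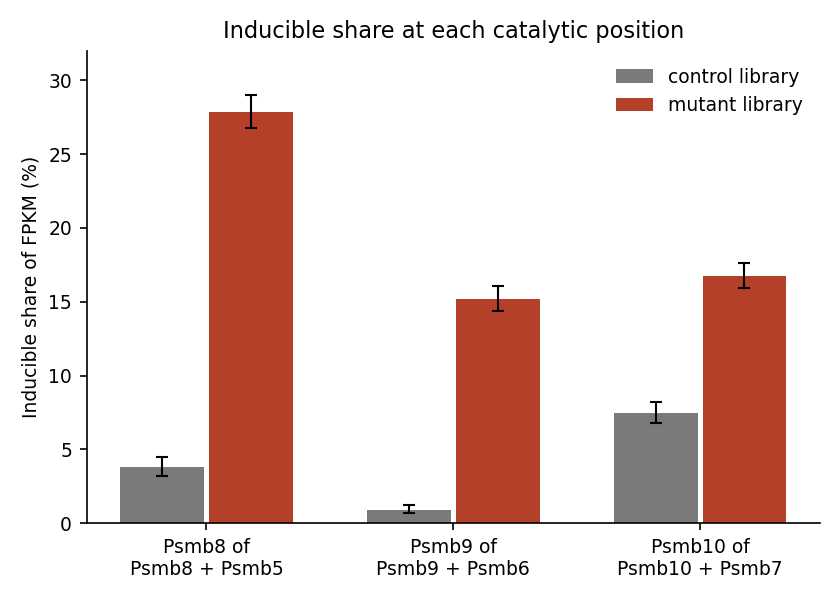
Share of the inducible gene in the summed FPKM of the inducible and constitutive genes of each catalytic position, in percent, for the control library (grey) and the mutant library (red); error bars are 95% intervals for counting error. The share is higher in the mutant library at each position, from 3.80% to 27.9% at the Psmb8 position, from 0.919% to 15.2% at the Psmb9 position and from 7.44% to 16.8% at the Psmb10 position.

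The rest of the proteasome differed little between the libraries. Of 11 measured genes among 13 other 20S subunits, 0 were past the size rule in either direction, with a median log2 ratio of 0.15. The largest ratios among them were those of Psmb3 (11.97 and 16.8 FPKM) and Psmb2 (75.3 and 90.8), both structural beta subunits. Of 18 genes of the 19S regulatory particle, which recognises ubiquitinated proteins, 0 were past it, and log2 ratios ran from -0.08 to 0.18. Of 8 assembly chaperone genes 0 were past it; Pomp, whose product matures the core and is known to favour immunoproteasomes, had 104.7 and 113.3 FPKM. The 3 genes listed as activators of proteasome transcription had a median of -0.05, with Nfe2l1 at 71.8 and 63.6 FPKM.

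The genes of the PA28 cap were higher by less than the size rule. Psme1 (PA28 alpha; chromosome 14, 55578123 to 55581529, plus strand) was the most abundant member in the control library. Its level was 27.1 and 47.2 FPKM, 1.74-fold higher (1.63 to 1.87). Psme2 (PA28 beta), on the minus strand at 55587441 to 55591113 of the same chromosome, had 1.88 and 3.09 FPKM, 1.65-fold higher (1.21 to 2.24), so its interval overlaps that of Psme1. Psme2 stood at only 6.93% of the Psme1 level in the control and 6.55% in the mutant, although the cap contains both chains. Of the 50-base stretches of the Psme2 transcripts NM_001029855 and NM_011190, 62.1% and 59.3% also occur in Psme2b, a near copy, so the level of Psme2 is uncertain. No other member shared more than 21.02% of its stretches with the transcripts of other genes. Psme3, which encodes the nuclear PA28 gamma cap, had 41.0 and 42.7 FPKM (1.04-fold, 1.002 to 1.08). Psme1 was thus 66.0% of Psme3 (62.0 to 70.3) without Cre and 111% (105.7 to 116.0) with it, a change of order within this family. The other activator Psme4 had 14.1 and 12.9 FPKM, and the inhibitor gene Psmf1 had 13.8 and 16.5.

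The peptide transporter genes differed from each other in size. Tap1 (chromosome 17, 34187553 to 34197225, plus strand) had 1.12 and 15.2 FPKM, 13.6-fold higher (11.6 to 16.2). Tap2 (chromosome 17, 34203527 to 34216321, plus strand) had 4.42 and 13.8 FPKM, 3.13-fold higher (2.88 to 3.41). The transporter holds 1 chain of each kind. Tap2 was 3.97 times the level of Tap1 in the control library and 0.91 times its level in the mutant, so Tap2 was the more abundant in one library and Tap1 in the other. Nearly all Tap1 signal was on the transcript NM_013683. The second, NM_001161730, was close to 0 in the control and listed at 0 in the mutant.

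The loading chaperones were about 2-fold higher. Tapbp (chromosome 17, 33915899 to 33929292, plus strand), which bridges the transporter and empty class I molecules, had 24.1 and 48.6 FPKM, 2.02-fold higher (1.93 to 2.11), and was the most abundant member in the mutant library. Both of its transcripts were higher: NM_009318 had 13.9 and 25.8 FPKM, and NM_001025313 had 10.1 and 22.8, which took it from 42.1% to 46.9% of the gene. Tapbpl, on chromosome 6 at 125223933 to 125231860 (minus strand), had 3.79 and 7.98 FPKM, 2.104-fold higher (1.87 to 2.37). With log2 ratios of 0.98 and 0.91 both lay just under the size rule.

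Nlrc5 had the largest fold of the set. Nlrc5 (chromosome 8, 94434356 to 94527272, plus strand) had 0.0516 and 3.69 FPKM, from about 17 and 1424 fragments over a transcript of 6945 bases. That is 71.5-fold higher (44.5 to 123), with a wide interval because of the low control count. With 1 FPKM added its log2 ratio was 2.16, the fourth of the set, and it ranked 66th among all measured genes. The DNA-binding partners through which Nlrc5 acts at class I promoters were compared with it: of 8 listed, 0 were past the size rule. Rfx5 had 10.5 and 9.07 FPKM, Rfxank had 7.42 and 8.22, Nfyb had 13.4 and 16.4 and Atf1 had 6.64 and 7.36.

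The class I chains that these genes serve had large ratios, and the general chaperones small ones. Of 9 listed chain genes 8 were measured and all 8 were past the size rule, with a median log2 ratio of 3.22. The light chain gene B2m had 21.6 and 348 FPKM, and the heavy chain genes H2-K1, H2-Q4 and H2-Q7, close copies whose separate levels are uncertain, had 8.03 and 158, 1.82 and 40.1, and 1.17 and 22.3. The folds of Tap1 (13.6), Psmb8 (13.6) and B2m (16.1, 14.9 to 17.3) have overlapping intervals, and those of Tap2, Tapbp and Psme1 lie below them. Of 7 endoplasmic reticulum genes 0 were past the rule, with 5 ratios above 0 and a median of 0.10. Calr, a lectin chaperone of the loading complex, had 281 and 301 FPKM, and Canx, a related membrane lectin, had 92.5 and 91.3. Pdia3, the disulfide isomerase linked to tapasin, had 81.6 and 100.4 FPKM. Erap1, which trims peptides there, had the lowest level of this list and its largest ratio, at 4.62 and 8.90 FPKM (1.93-fold, 1.80 to 2.07).

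**Figure D3:**
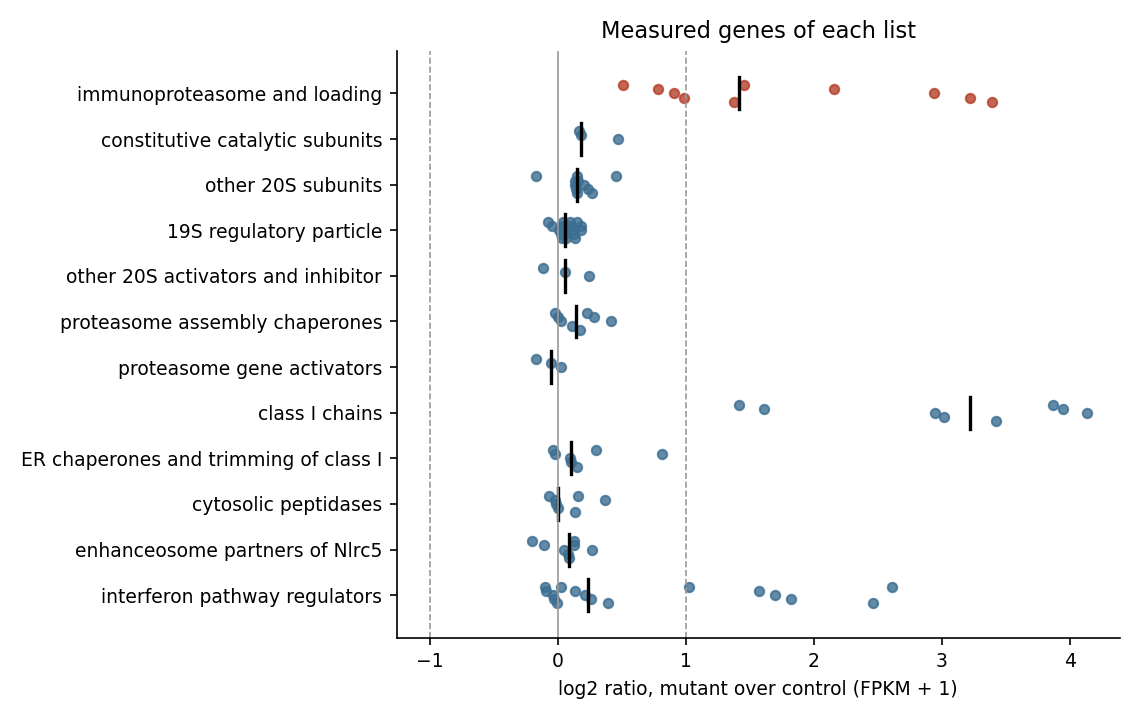
Log2 ratio of mutant over control (1 FPKM added to both) for each measured gene of the set (red) and of lists around it (blue); black bars are list medians and dashed lines mark the size rule of 1. The set and the class I chains lie to the right (medians 1.42 and 3.22), while the constitutive proteasome lists, the chaperones and the partners of Nlrc5 lie near 0.

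Regulators of the interferon response, to which these genes are known to answer, were compared next. Of 18 listed genes 16 were measured, 6 were past the size rule and 0 were lower by it, with a median log2 ratio of 0.24. Irf9, a DNA-binding factor of the type I interferon response, had 5.44 and 34.5 FPKM. Irf7 had 5.64 and 22.5 FPKM and Irf8 had 0.912 and 5.22. Irf1, an inducer of Psmb9 and Tap1, had 2.66 and 9.91. The receptor genes Ifngr1 (18.9 and 18.5 FPKM), Ifngr2 (18.7 and 18.2) and Ifnar1 (12.69 and 12.68) were level. The receptor gene Ifnar2 had 7.35 and 8.997 FPKM, 1.22-fold higher (1.09 to 1.37). The only ligand genes on this list were Ifng, at 0.0197 FPKM in the control and listed at 0 in the mutant, and Ifnb1, listed at 0 in both. Other interferon ligand genes were not examined.

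Psmb9, Tap1, Psmb8 and Tap2 lie side by side in the class II region of the major histocompatibility complex. RefSeq places the starts of Psmb9 and Tap1 226 bases apart, facing away from each other, so that 1 stretch lies upstream of both. It is shown because it is shared by genes at ranks 19 and 35 of all measured genes, with the 12 CpG dinucleotides, the sites where DNA methyltransferases act, in capitals. GENCODE, unlike RefSeq, extends the Psmb9 gene across it into Tap1. The stretch is chr17:34187331-34187555 on GRCm38.p6, plus strand, from RefSeq, running towards Tap1.
Psmb9 to Tap1: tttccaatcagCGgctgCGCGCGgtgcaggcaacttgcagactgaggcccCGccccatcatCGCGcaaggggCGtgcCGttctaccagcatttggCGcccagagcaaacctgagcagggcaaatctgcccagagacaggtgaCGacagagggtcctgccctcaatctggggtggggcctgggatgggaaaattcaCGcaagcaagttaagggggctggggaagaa
Methylation itself was not measured in these libraries.

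Promoter windows of 300 bases, from 250 before to 50 after a RefSeq start, were found for 7 of the 10 members, and not for Tap2, Tapbpl and Nlrc5. They held between 3 CpG (Psmb10) and 19 (Psme1), where the median of 32851 promoters was 7 and the quartiles 3 and 20. Psmb9 had 17, Tap1 15, Psmb8 and Tapbp 11 each, and the 2 Psme2 windows 11 and 12. The windows of Psmb5 and Psmb6 held 20 and 15. Next, 3 motifs were searched on both strands, and no matches of different motifs overlap in the members. The interferon-stimulated response element core (GAAA, any 2 bases, GAAA), found in 3.44% of all promoters, occurred in 1 member, Psme1. The gamma-activated sequence TTCNNNGAA, found in 8.30%, occurred in 1, Psmb8. The box CCAAT, bound by the NF-Y partners of Nlrc5 and found in 37.4%, occurred in Psmb9, Tap1 and Tapbp, in the first 2 as the same copy in their shared stretch. The 2 rarer matches are shown with the motif in capitals, at chr17:34198088-34198117 for Psmb8 and chr14:55578493-55578522 for Psme1, both plus strand, GRCm38.p6.
Psmb8: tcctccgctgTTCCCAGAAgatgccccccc
Psme1: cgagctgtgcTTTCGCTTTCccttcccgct
The Psmb8 match begins 97 bases before the RefSeq start, and the Psme1 match at base 10 after the RefSeq start. GENCODE starts Psmb8, Psme1 and Tapbp further upstream, so their matches lie inside its gene spans. A match is a stretch of letters only, and the windows do not cover distal elements.

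Genes next to the members were compared by position. Within 100 kb of the Tap1 start 9 genes were measured, among them the 4 members. Brd2, a chromatin reader at the edge of this segment, was level at 86.5 and 89.8 FPKM. H2-DMa had 2.35 and 3.50 FPKM, H2-DMb1 0.220 and 1.51, H2-Ab1 0.739 and 14.5 and H2-Aa 0.0454 and 6.67; these are class II genes, the last 3 past the size rule. Taking the nearest measured gene on each side of every member gave 13 genes that are not members, of which 2 were past the size rule (H2-DMb1 and H2-Ab1), with a median log2 ratio of 0.09. Emc9, whose exons overlap Psme1 on the opposite strand, had 14.5 and 15.4 FPKM, and Rnf31, beyond Psme2, had 10.6 and 13.9. In GENCODE the exons of Psmb9 and Tap1 also overlap on opposite strands. Of the 50-base stretches of the Tap1 transcript NM_013683, 5.61% also occur in Psmb9. Exons of Psmb8 and Tap2 overlap those of Gm20496 on the opposite strand. Without known strand, reads of overlapping ends cannot be told apart. Beside Psmb10, Pskh1 had 9.93 and 10.3 FPKM and Lcat 1.61 and 4.14. Rgl2, beside Tapbp, had 17.8 and 17.7 FPKM. Zbtb22, whose exons overlap Tapbp on the same strand, had 26.6 and 35.4, and reads of the overlap cannot be told apart. Vamp1, whose annotated span overlaps Tapbpl without an overlap of exons, was lower in the mutant library, at 32.9 and 16.4 FPKM. Mrpl51, on the other side of Tapbpl, had 17.9 and 18.6. Beside Nlrc5, Herpud1 had 36.2 and 33.9 FPKM and Cpne2 4.07 and 7.70.

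**Figure D4:**
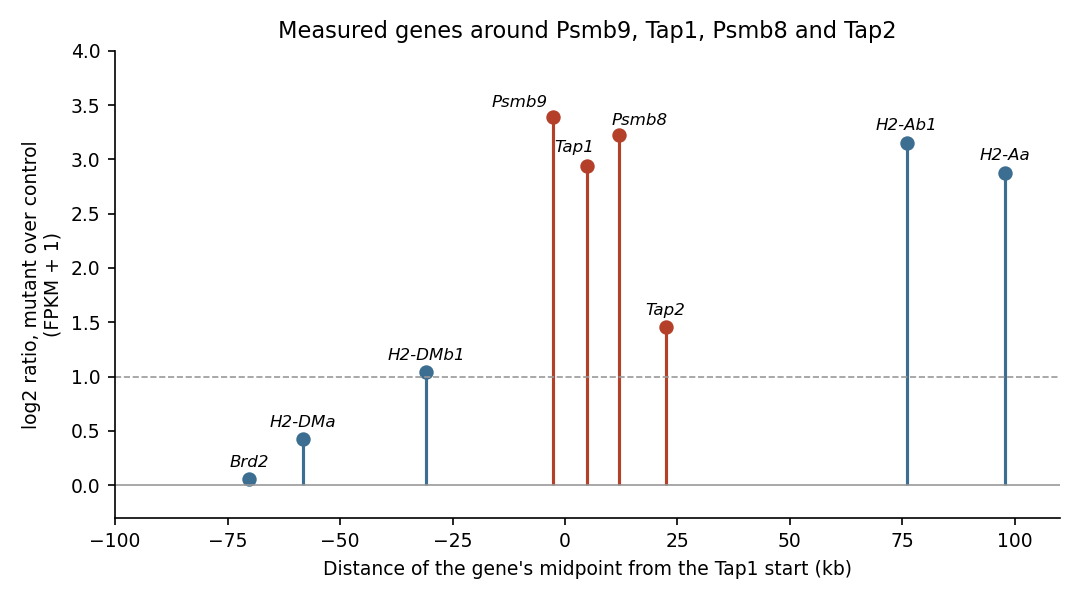
Log2 ratio of mutant over control (1 FPKM added) for the 9 measured genes within 100 kb of the Tap1 start, by the distance of their midpoints in kb; members are red, other genes blue, and the dashed line marks the size rule. Psmb9, Tap1 and Psmb8 reach 3.39, 2.94 and 3.22, Tap2 1.45, and Brd2 at the edge 0.05.

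Immune cells are known to express these genes, and markers of immune cells are given beside them. Of 15 microglia and macrophage markers 13 were measured, 6 were past the size rule and 0 were lower by it, with a median log2 ratio of 0.93, and their summed level was 39.4 and 88.6 FPKM (single genes 0.156 to 18.1 and 0.391 to 29.3). Tyrobp, a signalling adaptor of microglia, had 2.24 and 9.36 FPKM, Trem2 1.70 and 6.55, Laptm5 2.60 and 8.22 and Aif1 0.722 and 3.18. P2ry12, another marker of this list, had 1.86 and 3.14 FPKM (1.69-fold, 1.42 to 2.03). In the same list Cx3cr1 was 2.86-fold higher (2.54 to 3.23) and Fcrls 1.29-fold (1.04 to 1.61). The folds of Tyrobp (4.18), Trem2 (3.86), Laptm5 (3.17) and Aif1 (4.41) lie below those of Psmb8, Psmb9, Tap1 and Nlrc5 and above those of the other 6 members, with intervals that overlap those of Tap2 and Psmb10, and that of P2ry12 lies between those of Psme2 and Psme1; the part of microglia in the members' levels was not tested. Of 14 T and NK cell markers 0 reached 1 FPKM in either library, and their summed level was 0.711 and 1.96 FPKM. In the control library 9 of the 14 were listed at 0, and in the mutant 2, Cd3d and Ncr1, which were at 0 in both. Cd3e, at 0 in the control, had 0.097 FPKM in the mutant. The 9 B and dendritic cell markers summed to 4.17 and 3.75 FPKM, with Ms4a1 listed at 0 in the mutant, and the 6 neutrophil and monocyte markers in the table to 0.751 and 0.981, with Mpo at 0 in both. The members together stood at 72.5 and 205 FPKM.

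**Figure D5:**
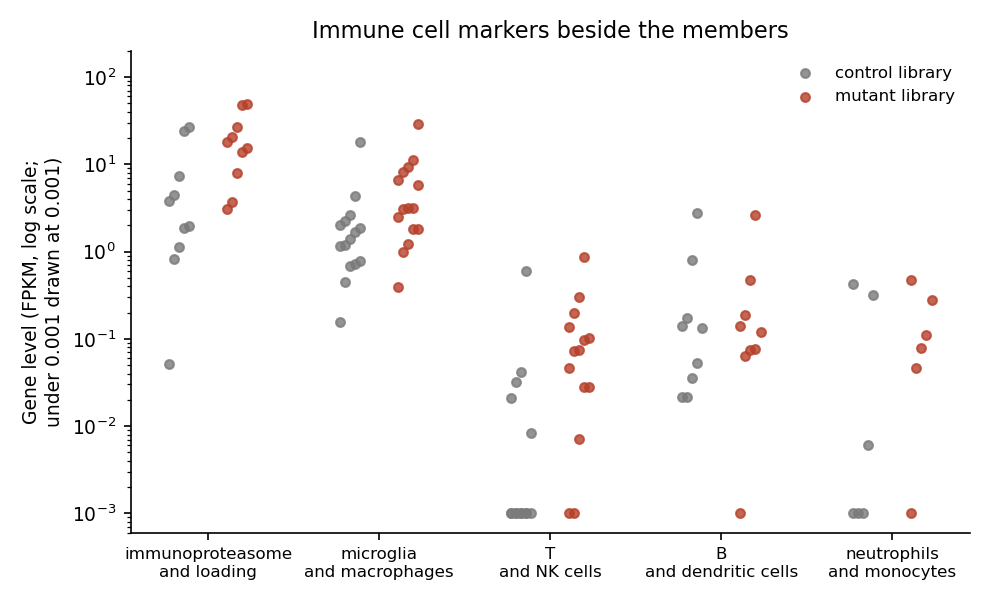
Level in FPKM on a log axis of the 10 members and of the markers of 4 groups of immune cells, with 1 point per gene for the control library (grey) and the mutant library (red); values under 0.001 FPKM are drawn at 0.001. Most T, NK, B, dendritic, neutrophil and monocyte markers lie under 1 FPKM in both libraries, while microglia markers summed to 39.4 and 88.6.

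Checks of the whole table bear on all values. The targeted genes were lower but not absent in the mutant library: Dnmt1 had 21.7 and 11.6 FPKM, Dnmt3a 87.4 and 56.0 and Dnmt3b 1.03 and 0.827. The rod genes Gnat1 (4266 and 3211 FPKM) and Nrl (441 and 692) were high in both. Lens and pigment epithelium markers summed to 251 and 5.26 FPKM; the part of those tissues in the members' values was not tested. At 1 FPKM a transcript rested on 48.5 and 56.95 fragments per kb.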

How the data were processed

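Total RNA of dissected retina was sequenced as 1 control and 1 mutant library. Reads were processed with TopHat2 2.0.8 and Cuffdiff 2.1.1 on mm10, per the submitters' processing notes. Annotation, read layout and strand were not given in the sources used here. For each transcript the authors deposited FPKM in 2 tables, of which the one with symbols was used, and q-values with a call, per the file headers. Genes with a transcript of status FAIL or HIDATA, or with none of status OK, were left out, which kept 15318 genes; a gene counted as measured at 1 FPKM or more in either library. The pseudocount was 1 FPKM. Fragments were recovered from the steps of low FPKM values in 4283 single-transcript loci: 99.2% of 510 values in the control and 99.4% of 525 in the mutant were whole within 0.1 fragments. Intervals are exact conditional binomial intervals at 95% (scipy 1.17.1) and cover counting error only. They were tried on simulated counts of single-transcript genes that followed the intervals' own counting model, so their coverage there was fixed by design. Counts recovered from FPKM, genes with several transcripts and shared sequence were not part of that trial. Read length is assumed in the comparison of 50-base stretches.

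The members and lists were chosen with earlier results of these data known. The genes named are the members, their constitutive counterparts with Psme3, at most 4 per list by absolute log2 ratio, list genes at 0 in both libraries and the nearest measured neighbours. Irf1, Pomp, P2ry12, Calr, Canx, Ifngr1, Ifngr2, Ifng, Psmb11 and Cd3e fall outside this rule and were chosen after their values were seen. The same holds for Ms4a1, Abcb9, Nlrc3, H2-Aa, H2-DMa, Brd2, Ifnar1, Ifnar2, Cx3cr1 and Fcrls. The Dnmt genes check the labels. Protein comparisons were planned and are not analysed here. A gene of the interferon list is not reported here by name.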

Additional observations from a re-analysis of the deposited data

How the results depend on the processing

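With a pseudocount of 0.1 FPKM the count of 6 members past the size rule was 8 (390 of all measured genes, against 245). With 5 FPKM it was 5 (92 of all). It was 7 in the other deposited table (1.98% of all measured genes) and 5 of 8 among genes of at least 5 FPKM (1.54% of all such genes). The count stayed 6 with equal summed FPKM (1.84% of all), centring (1.84%), the highest transcript only (1.89%) or no filter (1.6%). Without a pseudocount, added after seeing the data, it was 8 (392 of all). Nlrc5 was the member that dropped out at a pseudocount of 5, and Tapbp entered in the other table, whose log2 ratios were higher by a common shift (median over all genes 0.05). The median log2 ratio of 1.42 was 0.94 with a pseudocount of 5, a scale that shrinks low genes by construction, and lay between 1.42 and 1.57 in the others. Of 70 single-member ratios under these settings, all 70 were above 0 and 19 moved by more than their counting interval. A change of pseudocount cannot alter the sign of a ratio, so under those settings the sign was fixed in advance. Depth limits Nlrc5 most, with 17 control fragments, and then Psme2 (65 and 127 fragments) and Psmb9 (48 and 1224). No paired analysis was possible because each group has 1 library.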

Other observations

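Relatives of the members by gene family are given here, and none of those measured was past the size rule. Of 9 other transporter genes of the ABCB family, to which Tap1 and Tap2 belong, 7 were measured and 0 were past the size rule, with a median log2 ratio of -0.05. Abcb9, the closest relative, which carries peptides into lysosomes, had 12.2 and 11.8 FPKM (control, then mutant), and Abcb1a, a drug exporter of vessel walls, had 2.44 and 1.69. Of 14 other genes of the NLR family of Nlrc5, 2 were measured, Nod1 (0.743 and 1.13 FPKM) and Nlrx1 (3.26 and 3.43), and neither was past the size rule. Nlrc3 was under 1 FPKM in both libraries, at 0.342 and 0.207.

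Of 7 cytosolic peptidases that trim or destroy peptides between the proteasome and the transporter, 0 were past the size rule, with a median log2 ratio of 0.01. Lap3, a leucine aminopeptidase known to be induced by interferon, had the largest ratio, at 7.54 and 10.1 FPKM (1.33-fold, 1.22 to 1.46). Blmh had 41.1 and 45.9 FPKM, Thop1 11.8 and 13.0 and Ide 20.8 and 19.8.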
